A study of Homo sapiens with 7 samples.

Results

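The chromatin around the genes SETD7 and KDM1A was examined for binding of FOXA1 and of SETD7 itself. The peaks were those whose midpoint lay between positions 140330000 and 140580000 of chromosome 4 (the SETD7 window, 250 kb) or between 23250000 and 23510000 of chromosome 1 (the KDM1A window, 260 kb), on build hg19. The 7 deposited peak lists held 56 such peaks in the SETD7 window and 44 in the KDM1A window. Overlapping peaks of different lists were joined into sites, which gave 18 sites in each window, 36 of 193692 sites over all chromosomes. Sites are numbered along the chromosome as S1 to S18 in the SETD7 window and L1 to L18 in the KDM1A window.

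SETD7 is a lysine methyltransferase that adds a single methyl group to histone H3 and to other proteins. KDM1A encodes LSD1, a flavin-dependent demethylase that removes methyl groups from lysine and works with the CoREST corepressor. FOXA1 is a forkhead pioneer factor that binds nucleosomal DNA and opens enhancers used by the androgen receptor in prostate luminal cells. A FOXA1 or SETD7 peak at these genes would place the factor at the gene of an enzyme, and says nothing by itself of that gene's expression, which was not analysed here.

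The study used chromatin immunoprecipitation with sequencing in established human prostate cancer lines, LNCaP and 22Rv1, which the labels spell CWR22-Rv1. The SETD7 antibody was used on vehicle-labelled 22Rv1 cells alone. The FOXA1 antibody was used on 3 groups of 22Rv1 cells, namely vehicle, shCTL (a control short hairpin) and shSETD7 (a short hairpin that targets SETD7). It was also used on 3 groups of LNCaP cells treated for 4 hours: DMSO, GSK2879552 (an LSD1 inhibitor), and GSK2879552 plus PFI-2 (a SETD7 inhibitor), the last called the combination here. The labels name no hairpin sequence, clone or dose, and the treatment field of the combination reads as if PFI-2 could be present or absent, so its title was followed. Each group was 1 library, so no difference between groups could be tested and no spread between replicates can be given. The lists held 25526 (SETD7) and 63952 to 83994 (FOXA1) peaks, and read depth is unknown from them. The labels call 1 of the FOXA1 lists vehicle, but all 65461 of its peak names contain siNTC, a word absent from the labels.

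The promoters of both genes are shown first, because they are the sequences a factor acting on either gene at its start would meet. They are the 250 bases before the RefSeq start of each gene, 5′ to 3′ along the gene, on build GRCh38.p14. The SETD7 stretch is chr4:139556220-139556469 on the minus strand and the KDM1A stretch is chr1:23019218-23019467 on the plus strand. These positions belong to another build than the peaks and cannot be set beside them without conversion, which was not made. Whether a site lies at either gene start was therefore not examined. Capitals mark CG dinucleotides.
SETD7: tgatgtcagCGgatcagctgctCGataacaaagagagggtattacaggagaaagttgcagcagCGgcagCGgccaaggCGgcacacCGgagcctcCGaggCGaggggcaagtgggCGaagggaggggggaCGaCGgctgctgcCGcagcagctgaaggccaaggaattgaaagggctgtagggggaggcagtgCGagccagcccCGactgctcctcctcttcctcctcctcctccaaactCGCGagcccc
KDM1A: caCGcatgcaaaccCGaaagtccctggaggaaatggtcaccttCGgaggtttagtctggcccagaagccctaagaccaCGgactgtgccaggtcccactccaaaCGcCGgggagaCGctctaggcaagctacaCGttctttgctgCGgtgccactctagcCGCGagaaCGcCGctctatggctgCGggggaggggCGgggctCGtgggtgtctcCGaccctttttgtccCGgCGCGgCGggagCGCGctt

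The SETD7 stretch held 16 CG dinucleotides and the KDM1A stretch 23, against a median of 11 over 35116 RefSeq promoters, so both lay above the median. At least 16 were held by 41.0% of promoters and at least 23 by 25.8%. Both stretches were 64.0% G or C, against a median of 58.0%, and 35.6% of promoters had at least as much. For forkhead factors, 3 core motifs were searched on both strands from 250 bases before to 50 after the start, and none contains another. Neither gene had a match to any of them. Over all promoters, 3.42% held the motif TGTTTAC. The motif TATTTAC was held by 2.67%. The motif TGTTTGC was held by 3.89%, and 9.57% held at least 1 of the 3. These letters were thus not in the bases searched at either gene start, as in most promoters, and nothing follows from that about FOXA1 at other positions of the loci.

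An hg19 annotation was not used here, so a peak was not placed in an exon, an intron or a promoter. In the RefSeq table for GRCh38.p14, SETD7 (63.2 kb long) lies between RAB33B and MGST2, and KDM1A (64.2 kb) between LACTBL1 and LUZP1. Each window is longer than its gene, so a site in it may lie nearer to another gene. The LSD1 partners and other methyltransferase genes listed for comparison were not analysed here for the same reason.

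SETD7 itself had almost no peaks at either locus. No SETD7 peak lay in the SETD7 window, and a single one lay in the KDM1A window, the site L10 from 23384346 to 23384808. Its score was 21, at percentile 23.6 of the SETD7 list, where a percentile is the share of the list's peaks that score lower, with ties at their mean rank. The score is the authors' own value for a peak and is used only to rank peaks within a list. L10 overlapped no FOXA1 peak of any list, as did 81.0% of all 25526 SETD7 peaks, and the nearest FOXA1 site, L9, was 17.4 kb away. With the vehicle FOXA1 list alone, 5.86% of all SETD7 peaks overlapped. None of the 18 FOXA1 sites of the SETD7 window and none of the 17 of the KDM1A window held a SETD7 peak, against 2.78% of the 173005 FOXA1 sites over all chromosomes.

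SETD7 peaks were also sparse around the windows. Within 10 Mb on each side there were 2.95 SETD7 peaks per Mb around the SETD7 window, near the 3.86 of the whole of chromosome 4. Around the KDM1A window there were 3.70, against 21.2 over the whole of chromosome 1. Over all chromosomes there were 8.25. Of the tiles of 250 kb with a peak in any list, 40.8% had no SETD7 peak, and 53.1% of those on chromosome 4 had none. A window of this length with 0 SETD7 peaks was therefore common. Widened by 50 kb on each side, the SETD7 window held 2. Of the tiles of 260 kb with a peak in any list, 60.1% had at least 1 SETD7 peak. On chromosome 1, 73.4% of these tiles had at least 1 and 43.9% had at most 1, with a median of 2. The 21.2 per Mb of chromosome 1 is a mean, so it does not describe a typical tile there. The nearest SETD7 peak before the SETD7 window, from 140318390 to 140318760, was 11.2 kb outside it, with a score of 42 at percentile 77.2, and the nearest one after it, from 140651723 to 140652007, was 71.7 kb outside. Around the KDM1A window the next SETD7 peaks were 414 kb before and 119 kb after it.

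**Figure D1:**
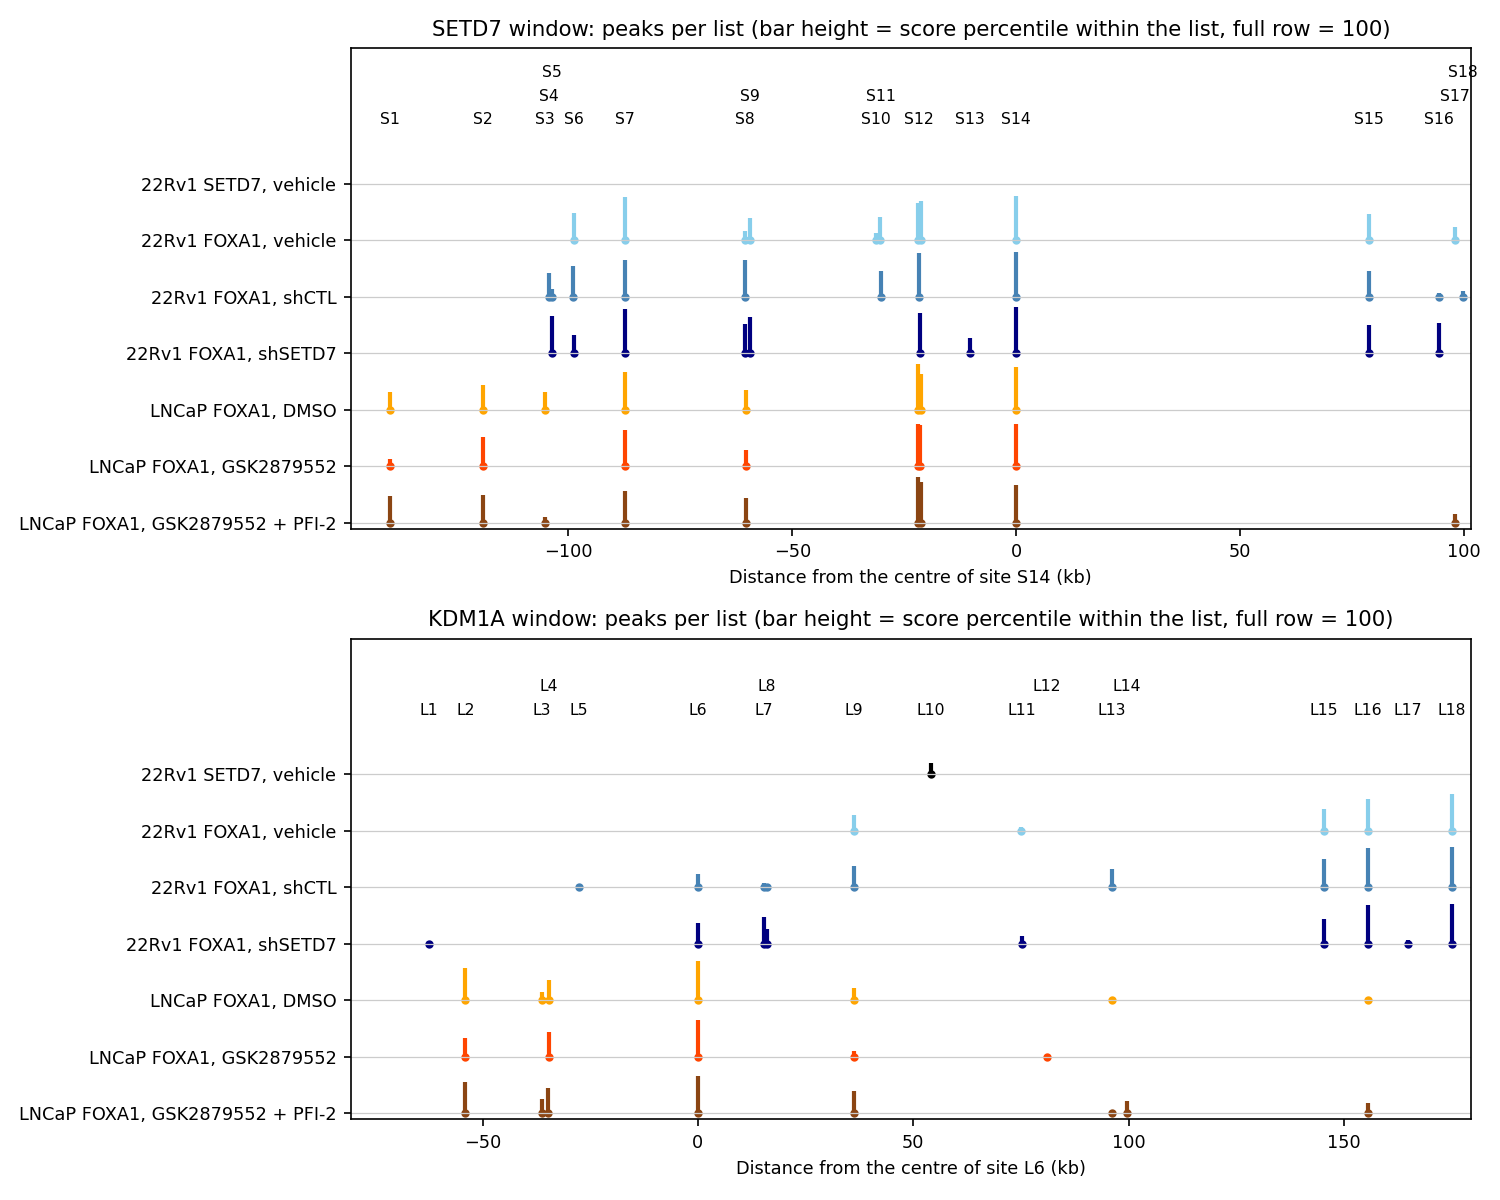
Peaks of the 7 lists in the SETD7 window (above) and the KDM1A window (below), by distance in kb from the centre of site S14 or L6. Each dot and bar is 1 peak, the bar's height is the score percentile within its own list, bar widths are not to scale, and sites are named along the top. S7, S8, S12 and S14 have a peak in all 6 FOXA1 rows, no KDM1A site does, and L10 is the only SETD7 peak.

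FOXA1, in contrast, had peaks at the SETD7 gene locus in every FOXA1 list. The window held 11 peaks in vehicle, 11 in shCTL and 10 in shSETD7 cells of 22Rv1, and 8 with DMSO, 7 with GSK2879552 and 9 with the combination in LNCaP. In 22Rv1 this was 44.0, 44.0 and 40.0 peaks per Mb, against 21.2, 27.1 and 20.7 over all chromosomes and 20.7, 27.7 and 16.7 over chromosome 4. The LNCaP densities were nearer to the rest of the genome, at 32.0, 28.0 and 36.0 against 25.9, 20.8 and 27.1. The 10 Mb on each side of the window held 21.4, 29.6 and 16.4 in vehicle, shCTL and shSETD7 cells. In LNCaP these flanks held 26.9, 20.4 and 27.2. As a description, 11521 tiles of 250 kb had a peak in any list, and 10.3% of them held 11 or more vehicle peaks. Of these tiles, 23.0% held 11 or more shCTL peaks and 15.5% held 10 or more shSETD7 peaks. For the LNCaP lists 36.7% to 42.8% of tiles held at least as many. The joined FOXA1 sites covered 7.73 kb, or 3.09% of the window.

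**Figure D2:**
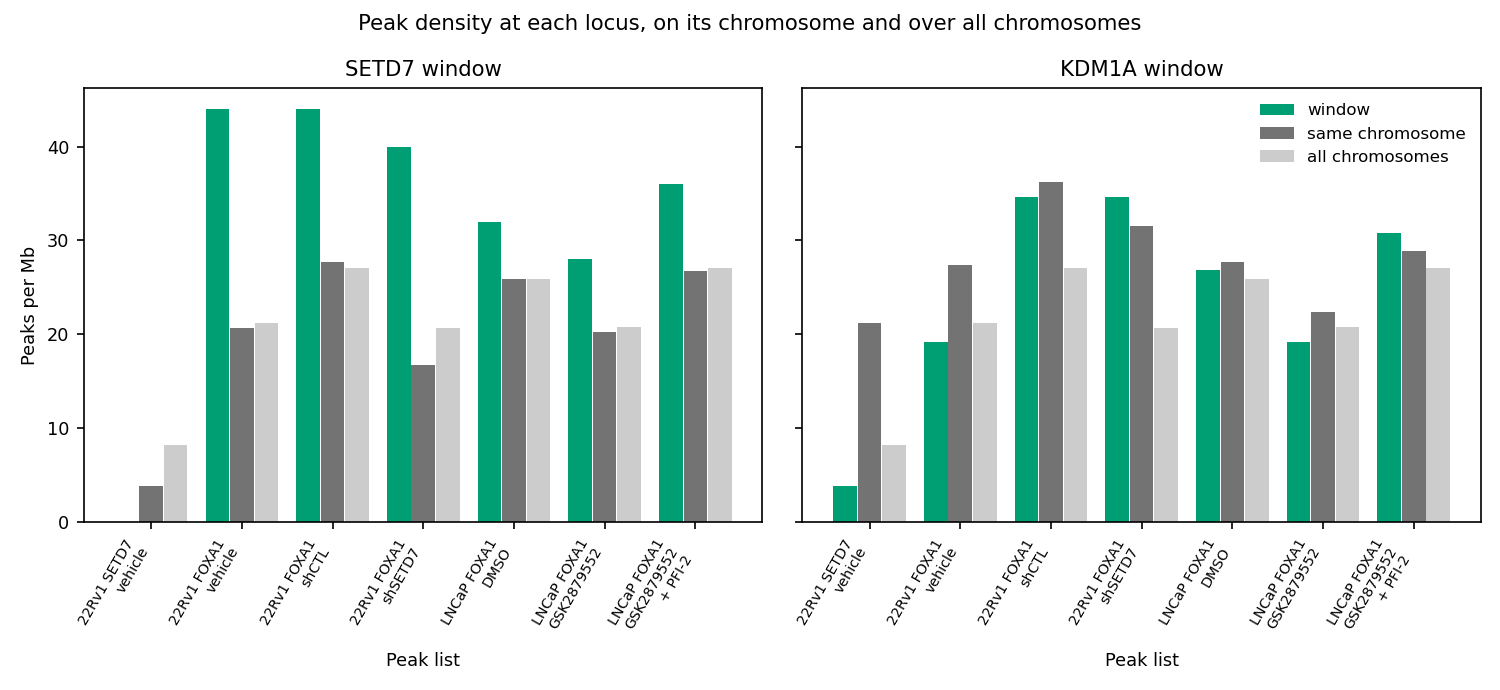
Peaks per Mb in each list, for the window (green), its chromosome (dark grey) and all chromosomes (light grey). In the SETD7 window the 22Rv1 FOXA1 bars reach 40.0 to 44.0, above both grey bars, while in the KDM1A window they lie between 19.2 and 34.6 and straddle the grey bars.

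Of the 18 sites in the SETD7 window, 4 were peaks in all 6 FOXA1 lists: S7, S8, S12 and S14. That is 22.2% (95% Wilson interval 9.0 to 45.2, for counting error only), against 8.43% of all FOXA1 sites. The share over all chromosomes lies just below the lower bound of this interval. Neighbouring sites of a window are not independent, and no test was made. When peaks had to overlap reciprocally by 50%, 2 of 21 sites of the window were in all 6 lists. The share over all chromosomes was not computed under that rule, so the difference may depend on how peaks were joined. The other sites were in 3 lists (4 sites), 2 lists (6 sites) or 1 list (4 sites, or 22.2%, against 38.7% of all FOXA1 sites).

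S14, from 140478326 to 140478789, was the strongest site of the window in all 3 22Rv1 lists. Its score was 418 in vehicle, 1267 in shCTL and 1362 in shSETD7 cells, at percentiles 91.6, 93.4 and 95.8 of those lists. In LNCaP it was 773 with DMSO, 625 with GSK2879552 and 539 with the combination, at percentiles 90.2, 87.3 and 79.3. It was thus a strong FOXA1 site in both lines and in the shSETD7 library. The 6 midpoints lay within 35.0 bp of each other.

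S12, from 140456336 to 140457391, was a double site. Vehicle, DMSO, GSK2879552 and combination lists each had 2 peaks there, shCTL had a single peak of 968 bp across both, and shSETD7 had only the second. The first of the pair scored 188 in vehicle (percentile 76.8), 1049 with DMSO (94.7), 631 with GSK2879552 (87.5) and 1151 with the combination (94.5). The second scored 239 in vehicle (percentile 82.4), 353 in shSETD7 (83.1), 417 with DMSO (75.0), 592 with GSK2879552 (86.0) and 652 with the combination (84.3). The broad shCTL peak scored 998, at percentile 91.3. The first of the pair was the strongest LNCaP peak of the window under all 3 treatments. Under the overlap rule the shCTL peak counts as found in shSETD7, although only its second part had a peak there.

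S7, from 140391019 to 140391421, had scores of 391 in vehicle, 367 in shCTL and 775 in shSETD7, at percentiles 90.8, 76.8 and 92.0. In LNCaP it scored 481, 415 and 365 with DMSO, GSK2879552 and the combination, at percentiles 79.2, 76.4 and 67.0. All 6 values lay in the upper part of their lists, and the midpoints agreed within 20.5 bp, the closest of the 4 sites.

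S8, from 140417736 to 140418399, was the weakest and most variable of the 4. It scored 48 in vehicle (percentile 18.9), 381 in shCTL (77.5) and 125 in shSETD7 (62.0), then 181 with DMSO (41.8), 156 with GSK2879552 (33.8) and 249 with the combination (52.2). The vehicle value was lowest and the shCTL value highest, and both are from 22Rv1 cells without the SETD7 hairpin. Only 0.431 kb further on, S9 was a peak in vehicle (81, percentile 46.7) and shSETD7 cells (224, 75.6) but not in shCTL cells or LNCaP. Ranks from lists of unequal length do not show a change in binding, so these percentiles describe each list only.

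**Figure D3:**
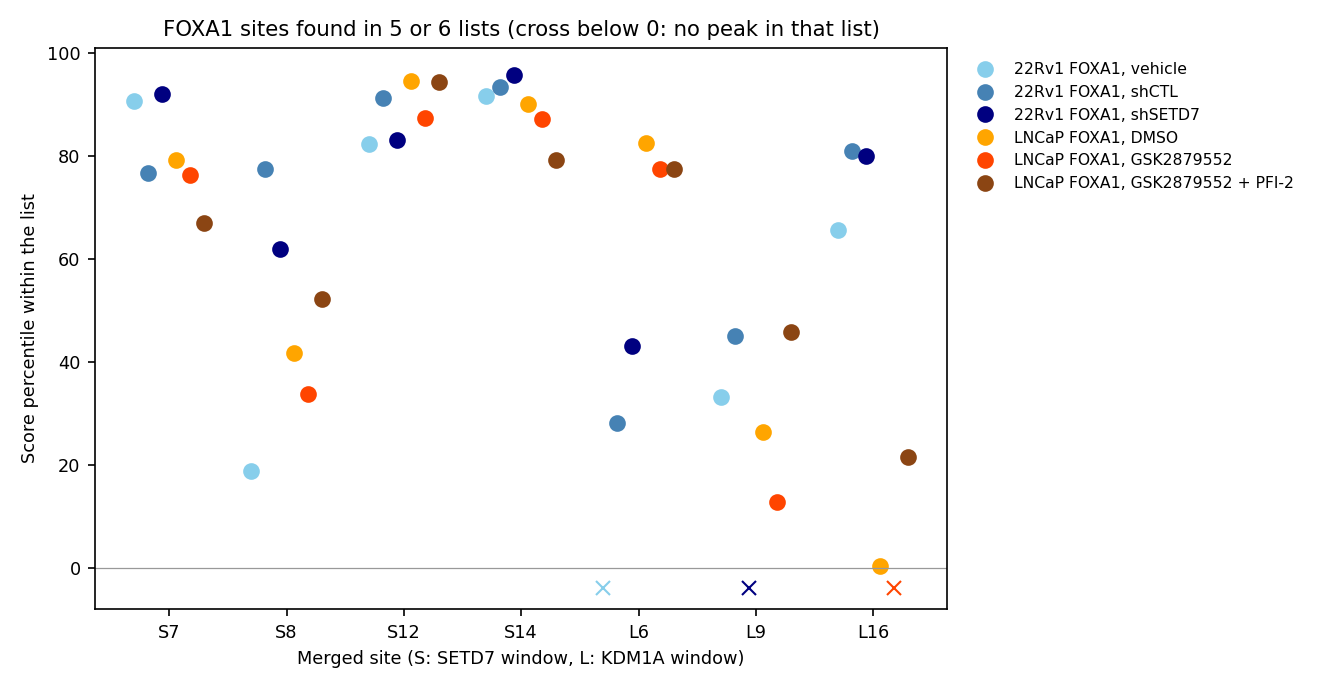
Score percentile of the strongest peak per list at the 7 sites found in 5 or 6 FOXA1 lists, 4 in the SETD7 window and 3 in the KDM1A window. Each point is 1 library and a cross below 0 marks a list with no peak. S12 and S14 stay between 79.3 and 95.8 in all 6 lists, and each KDM1A site lacks a different list.

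Each other site of the SETD7 window was found in a single cell line, except S17, which was found in both. S1, S2 and S3, the first 3, were found in LNCaP only, with S2 at scores of 220, 279 and 289 under DMSO, GSK2879552 and the combination (percentiles 51.0, 62.1 and 58.3). S4 to S6, the next 3, were found in 22Rv1 only, although S4 began just 0.647 kb after S3. S6 scored 102 in vehicle (percentile 57.6), 220 in shCTL (64.7) and 61 in shSETD7 (38.8). S15, 78.4 kb beyond S14, was again a 22Rv1 site, with 96, 153 and 108 in vehicle, shCTL and shSETD7, all between percentiles 54.3 and 58.1. After S14 the LNCaP lists held no peak in the window other than S17 in the combination (score 129, percentile 19.5), which was also a peak in 22Rv1 vehicle cells (56, 27.9). In all, 10 sites were in 22Rv1 only (55.6%, 33.7 to 75.4; 44.9% of all FOXA1 sites), 3 in LNCaP only (16.7%, 5.84 to 39.2; 25.8% of all) and 5 in both lines (27.8%, 12.5 to 50.9; 29.4% of all). Each interval includes the share over all chromosomes.

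At the KDM1A locus FOXA1 peaks were weaker and none of the 17 FOXA1 sites was common to all 6 lists. A count of 0 of 17 has a 95% Wilson interval of 0 to 18.4%, which includes the 8.43% of all sites. The window held 5, 9 and 9 peaks in vehicle, shCTL and shSETD7 cells, and 7, 5 and 8 with DMSO, GSK2879552 and the combination. In 22Rv1 this was 19.2, 34.6 and 34.6 peaks per Mb, against 21.2, 27.1 and 20.7 over all chromosomes. Over chromosome 1 it was 27.4, 36.2 and 31.5. In LNCaP the window held 26.9, 19.2 and 30.8, against 25.9, 20.8 and 27.1 over all chromosomes. The 10 Mb on each side held 21.0 to 29.2 in 22Rv1 and 18.9 to 22.3 in LNCaP. Of all tiles of 260 kb with a peak in any list, 59.8%, 38.8% and 22.4% held at least as many vehicle, shCTL and shSETD7 peaks. For the LNCaP lists 48.8% to 61.2% did. No peak of the window was in the highest 10% of scores of any list. In the SETD7 window each FOXA1 list except GSK2879552 had 1 or 2 such peaks. The median percentile of the peaks was 26.4 to 45.0 per FOXA1 list in the KDM1A window and 54.3 to 76.4 in the SETD7 window, where the median of a whole list is 50 by construction.

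Among the KDM1A sites, 3 were peaks in 5 FOXA1 lists, and each lacked a different list. With none in 6 lists, this was 17.6% of sites (6.19 to 41.0), against 16.3% of all FOXA1 sites in 5 or 6 lists. L6, from 23330372 to 23330766, was the strongest LNCaP site, with 545 under DMSO (percentile 82.5), 431 under GSK2879552 (77.6) and 508 under the combination (77.5). In 22Rv1 it scored 77 in shCTL (28.2) and 68 in shSETD7 (43.2) and was not a peak in vehicle cells. L6 thus lay in the upper part of every LNCaP list and below the median of the 22Rv1 lists that held it.

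L16, from 23485861 to 23486374, had the reverse order. It scored 128 in vehicle (percentile 65.7), 459 in shCTL (81.1) and 287 in shSETD7 (80.0). With DMSO it scored 59, at percentile 0.314 and so among the weakest peaks of that list, and with the combination 134 (21.6), while GSK2879552 had no peak there. L9, from 23366594 to 23366978, was of middle to low rank wherever it was found. It scored 62 in vehicle (percentile 33.2), 118 in shCTL (45.0), 134 with DMSO (26.4), 110 with GSK2879552 (12.8) and 215 with the combination (45.8), and had no peak in shSETD7 cells.

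L18, the highest-scoring site of the KDM1A window in each of the 3 22Rv1 lists, was found in that line only. The site, from 23505393 to 23505965, scored 184 in vehicle (percentile 76.4), 558 in shCTL (84.2) and 352 in shSETD7 (83.0). L15 was likewise in the 3 22Rv1 lists, with 77, 184 and 90 (percentiles 45.0, 59.6 and 52.2). L2 and L4 were in the 3 LNCaP lists and in no 22Rv1 list. L2 scored 337, 172 and 344 with DMSO, GSK2879552 and the combination (percentiles 67.8, 39.0 and 64.9) and L4 scored 182, 221 and 247 (42.3, 51.8 and 51.8). L7 (23345692 to 23346100) and L8 (23346439 to 23346830), a pair 0.338 kb apart, were peaks only in the hairpin libraries. L7 scored 42 in shCTL (percentile 9.82) and 96 in shSETD7 (54.7), and L8 scored 23 (0.994) and 49 (31.5). In all, 8 of the 17 sites were in 22Rv1 only (47.1%, 26.2 to 69.0), 5 in LNCaP only (29.4%, 13.3 to 53.1), 4 in both lines (23.5%, 9.56 to 47.3) and 5 in a single list (29.4%), and each of these intervals includes the share over all chromosomes.

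SETD7 knockdown was examined first, by asking which shCTL peaks had an shSETD7 peak, that is, whether FOXA1 sites at these genes were still found. Most were. Of the 11 shCTL peaks in the SETD7 window, 8 overlapped an shSETD7 peak (72.7%, 43.4 to 90.3), and of the 9 in the KDM1A window 6 did (66.7%, 35.4 to 87.9), against 44.5% of all 83994 shCTL peaks. For both windows together it was 14 of 20 (70.0%, 48.1 to 85.5), whose lower bound is above the share over all chromosomes. The interval of each window alone includes that share. Pooled likewise, the intervals for shSETD7 peaks in shCTL (51.2 to 88.2) and shCTL peaks in vehicle (34.2 to 74.2) include 58.2% and 51.3%. That for DMSO peaks with GSK2879552 (48.0 to 89.1) includes 71.2%. That for vehicle peaks in shSETD7 (44.4 to 85.8) lies above its share of 43.4%. Peaks of 1 locus and 1 library are not independent replicates, and no test was made. In the reverse direction 8 of 10 and 6 of 9 shSETD7 peaks overlapped shCTL (80.0% and 66.7%), against 58.2% of all shSETD7 peaks.

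The shCTL peaks that shSETD7 lacked were of middle to low rank. They were S4 (score 130, percentile 48.9), S11 (153, 54.3) and S18 (49, 13.1) in the SETD7 window and L5 (39, 7.01), L9 (118, 45.0) and L13 (97, 37.4) in the KDM1A window. Of all shCTL peaks in the same score deciles, 55.1% to 81.0% also had no shSETD7 peak. Rank did not separate absent from found peaks here. The shCTL peaks at L8 (percentile 0.994), S16 (7.32), L7 (9.82), S5 (16.3) and L6 (28.2) ranked below S4, S11, L9 and L13. They nevertheless had an shSETD7 peak, as did 19.0% to 28.1% of all shCTL peaks in their score deciles. Both shCTL peaks of the SETD7 window in the top decile, S12 and S14, had an shSETD7 peak, as did 78.4% of all shCTL peaks of that decile. S11 and L9 were peaks in vehicle cells too, while S4, S18, L5 and L13 were not. The shSETD7 peaks without an shCTL peak were S9 (224, percentile 75.6), S13 (52, 32.9), L1 (20, 5.00), L11 (30, 15.5) and L17 (24, 8.14). S9 was the only one of these 5 above the median of its list, and it was a peak in vehicle cells and lay within 1 kb of an shCTL peak. Among all shSETD7 peaks of its decile, 11.9% had no shCTL peak.

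Lists of 22Rv1 cells without the SETD7 hairpin also differed at these loci. Of the shCTL peaks, 7 of 11 (63.6%, 35.4 to 84.8) in the SETD7 window and 4 of 9 (44.4%, 18.9 to 73.3) in the KDM1A window overlapped a vehicle peak, against 51.3% of all shCTL peaks. Conversely, 8 of 11 and 4 of 5 vehicle peaks overlapped an shCTL peak (72.7% and 80.0%; 67.0% of all vehicle peaks). In windows narrower by 50 kb on each side, 5 of 5 shCTL peaks (100%) overlapped a vehicle peak at SETD7 and 1 of 6 (16.7%) at KDM1A.

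**Figure D4:**
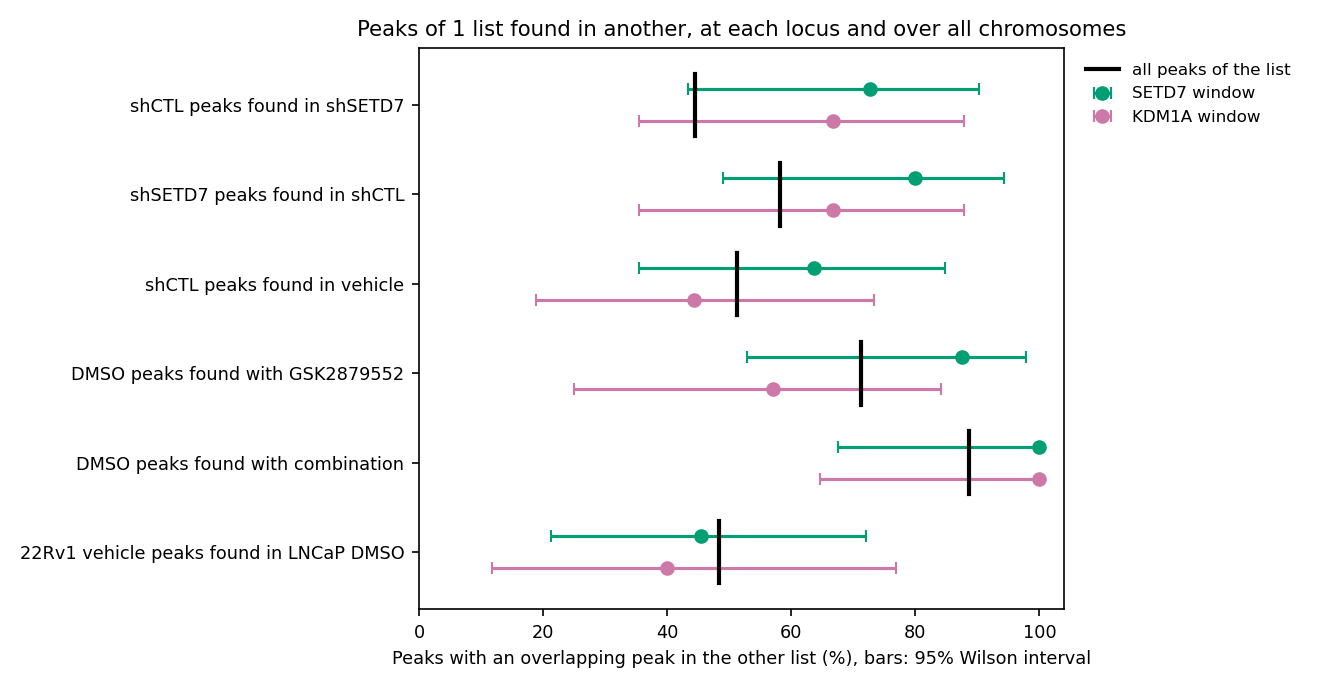
Share of the peaks of a list with an overlapping peak in another list, for the SETD7 window (green) and the KDM1A window (pink) with 95% Wilson intervals, and for all peaks of the list (black lines). Every interval in the plot includes its black line, and the intervals are wide because each rests on 5 to 11 peaks.

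Inhibition of LSD1 was examined in LNCaP cells, by asking which DMSO peaks at these genes had a GSK2879552 peak. At the SETD7 locus 7 of 8 DMSO peaks overlapped a GSK2879552 peak (87.5%, 52.9 to 97.8), and at the KDM1A locus, the gene of the inhibited enzyme, 4 of 7 did (57.1%, 25.0 to 84.2). Over all chromosomes it was 71.2%, inside both intervals. With lists of equal size it was 4 of 4 at the KDM1A locus (100%), because the weaker DMSO peaks were no longer in the list. Absent with GSK2879552 were S3 (DMSO score 166, percentile 37.6), L3 (113, 17.6), L13 (86, 5.06) and L16 (59, 0.314). All 4 lay below the median of the DMSO list, and of all DMSO peaks in their score deciles 41.1% to 76.2% had no GSK2879552 peak. Both DMSO peaks of the SETD7 window in the top decile, at S12 and S14, had a GSK2879552 peak, as did 8010 of all 8011 DMSO peaks of that decile. Of the GSK2879552 peaks, 7 of 7 and 4 of 5 overlapped a DMSO peak (100% and 80.0%; 89.6% of all), and the exception, L12, had a score of 89 at percentile 4.70.

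With the combination every DMSO peak of both loci was present. It was 8 of 8 in the SETD7 window (100%, 67.6 to 100) and 7 of 7 in the KDM1A window (100%, 64.6 to 100), against 88.6% of all DMSO peaks. The 4 DMSO peaks that GSK2879552 lacked were thus all found (100%, 51.0 to 100), where 67.9% of all such DMSO peaks were. Their combination scores were 111 at S3 (percentile 11.5), 158 at L3 (30.7), 74 at L13 (1.30) and 134 at L16 (21.6), all in the lower part of that list. Of all DMSO peaks absent with GSK2879552, 48.0% were found with the combination in the lowest score decile, which held L13 and L16, 58.2% in the second (L3) and 82.3% in the fourth (S3). The combination list was longer than the GSK2879552 list, at 83833 against 64217 peaks. With all 3 lists reduced to their 64217 highest scores, S3 alone of the 4 peaks was left in the DMSO list, and it had no peak in either of the other lists. In the reverse direction 8 of 9 and 7 of 8 combination peaks overlapped a DMSO peak (88.9% and 87.5%; 84.8% of all), with S17 and L14 (score 144, percentile 25.2) as the exceptions.

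Between the lines, the control lists shared part of their sites at both loci. Of the vehicle peaks of 22Rv1, 5 of 11 (45.5%, 21.3 to 72.0) in the SETD7 window and 2 of 5 (40.0%, 11.8 to 76.9) in the KDM1A window overlapped a LNCaP DMSO peak, against 48.3% of all vehicle peaks. Of the DMSO peaks, 5 of 8 (62.5%, 30.6 to 86.3) and 2 of 7 (28.6%, 8.22 to 64.1) overlapped a vehicle peak, against 39.2% of all DMSO peaks. The shared peaks were at S7, S8, S12 and S14, and at L9 and L16.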

How the data were processed

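Chromatin was crosslinked with 1% formaldehyde, and 1 peak list per library, 7 in all, was analysed. Per the submitters' processing notes, the tools were BWA 0.7.17-r1188, MACS2 2.1.4, SAMtools 1.9 and FastQC 0.11.9, and the build hg19, without roles or settings. How peaks were thresholded, and against what control, is not stated in the labels or files. Each deposited peak has a score from the authors, always a whole number, of unstated definition. Scores began at 13 in 22Rv1 and at 40 to 48 in LNCaP. Peaks overlapping by at least 1 bp were joined or counted as found in the other list. Percentages carry 95% Wilson intervals for counting error only, and deciles are 10 score groups within a list. Named sites were every site with a SETD7 peak or in all 6 FOXA1 lists, the 3 highest percentiles per window, top-decile sites lost with shSETD7 or GSK2879552 (none), and sites in DMSO and the combination but not GSK2879552. Other sites named were chosen after their values were seen. The loci, lists and comparisons were chosen with earlier results of these data known. Alternatives changed the overlap rule, the part of each list used and the window edges. The overlap rules were tested on simulated lists. On the deposited peaks, joining at 1 bp and the overlap of shCTL with shSETD7 gave the same counts as bedtools 2.31.1. Joining by the other rules was not checked. The software was Python 3.11.15 with matplotlib 3.10.9, scipy 1.17.1, pandas 2.3.3 and numpy 2.4.6. Promoters and gene names came from RefSeq tables on GRCh38.p14, in which both genes matched by symbol.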

Additional observations from a re-analysis of the deposited data

How the results depend on the processing

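No paired analysis was possible because each group has 1 library and the result comes from no test. Over 15 results and 87 alternatives, 73 stayed within 1.5 times the reported count or inside the interval of the reported share, and 14 did not. These intervals are wide, so a share inside its interval may still have moved far. With reciprocal overlap of 50%, shCTL peaks kept in vehicle at SETD7 fell from 63.6% to 45.5% and counted as inside. In windows narrower by 50 kb on each side, sites numbered 8 at SETD7 and 10 at KDM1A (18 each as reported). There, shCTL peaks kept in vehicle were 100% and 16.7%, and DMSO peaks kept with GSK2879552 at SETD7 100%. The SETD7 window wider by 50 kb on each side held 2 SETD7 peaks. With the higher-scoring 50% of each list, KDM1A held 7 sites and 0 SETD7 peaks, shCTL peaks kept in shSETD7 at KDM1A were 100%, and DMSO peaks kept with GSK2879552 at SETD7 100%. With equal-sized lists, shCTL peaks kept in vehicle at SETD7 were 87.5%, DMSO peaks kept with GSK2879552 at KDM1A 100%, and DMSO peaks absent with GSK2879552 and present with the combination 0% (0 of 1). With reciprocal overlap of 50%, 2 of 21 sites at SETD7 were in all 6 lists (4 of 18 as reported). Narrower windows and shorter lists hold fewer peaks by construction. Alternatives for that last class and for sites in all 6 lists were added after seeing the data. Depth is unknown, and every share of peaks in 1 window rests on 11 peaks or fewer.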
